A study of Oryza sativa with 4 samples.

Results

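Sugar reaches the developing rice grain through a short series of transport steps, and 8 genes of that series are described here: the sugar carriers SWEET4, SWEET11, SWEET14 and SWEET15, the sucrose transporters SUT1, SUT2 and SUT4, and the cell-wall invertase GIF1. They were chosen by their loci and names, and all 8 were found among the 31453 loci listed in at least 1 library. The libraries hold poly(A) RNA from 2 rice cultivars, Sharbati and Lalat, grown untreated in pots of soil with farm yard manure in a net house. Developing grains, of the long slender type, and roots were taken 15 days after panicle emergence, which is mid grain filling. Brown rice of Sharbati held 24.88 ppm iron and that of Lalat 7.80 ppm, per the labels. Each of the 4 groups (grain and root of each cultivar) had 1 library, so no spread between plants is known and no statistical test was made.

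As background, sucrose arrives in the maternal vascular bundle of the grain and has to cross into the apoplast, because no cell connections join maternal and filial tissue. SWEET proteins are carriers that let sugar cross a membrane down its gradient, whereas SUT proteins use the proton gradient to load sucrose into a cell. Cell-wall invertase cuts sucrose in the apoplast into glucose and fructose, which hexose carriers can then take up.

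Levels are given as FPKM, fragment numbers divided by transcript length and by the library's total, so genes can be compared within a library. Fragment counts were not used here and the depth is unknown. What 1 fragment was worth was read from genes with the most frequent deposited p-value beside a partner at 0. Its median was 0.0302 FPKM in grain of Sharbati and 0.0402 FPKM in grain of Lalat, against 1.07 FPKM in root of Sharbati and 0.105 FPKM in root of Lalat. Between the 5th and 95th percentile of such genes it spanned 0.223 to 7.14 FPKM in Sharbati root. FPKM is divided by length, so 1 fragment is worth more in a shorter transcript. A level below 7.14 FPKM there can rest on a single fragment in some genes, but need not. The 10 highest genes took 8.61% to 38.2% of the summed FPKM of a library. All 8 members were listed above 0 in both grain libraries, 6 in Lalat root and 4 in Sharbati root.

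The labelled organs were compared with their defining markers. Of 12 endosperm markers, 6 were above 0 in Sharbati grain and 7 in Lalat grain, with summed levels of 53547 and 58978 FPKM. The glutelin gene GluA2 was at 0 in Sharbati grain beside 12212 FPKM in Lalat grain, and GluA1, GluB1a, GluB1b, GluB4 and GluB5 were not listed in either grain library although all 5 were above 0 in both root libraries. An entry at 0 or a missing entry in these tables therefore does not show that a transcript was absent. The same list was above 0 for 9 markers in Sharbati root, where GluD1, RPBF and BT1 were at 0 and the sum was 73.3 FPKM, and for all 12 markers in Lalat root, where the sum was 1967 FPKM. Of 7 root markers, 5 were above 0 in Sharbati root (280.1 FPKM summed, RCc3 at 0) and 6 in Lalat root (136.8 FPKM), against grain sums of 0.304 FPKM for Sharbati and 0.716 FPKM for Lalat. Of 3 embryo and aleurone markers, all were above 0 in both grain libraries (99.97 FPKM summed in Sharbati, 232 in Lalat). In root they summed to 2.50 FPKM in Sharbati, with OLE16 at 0, and 2.02 in Lalat. Storage protein transcripts were thus present in both root libraries, with the larger sum in that of Lalat.

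**Figure D1:**
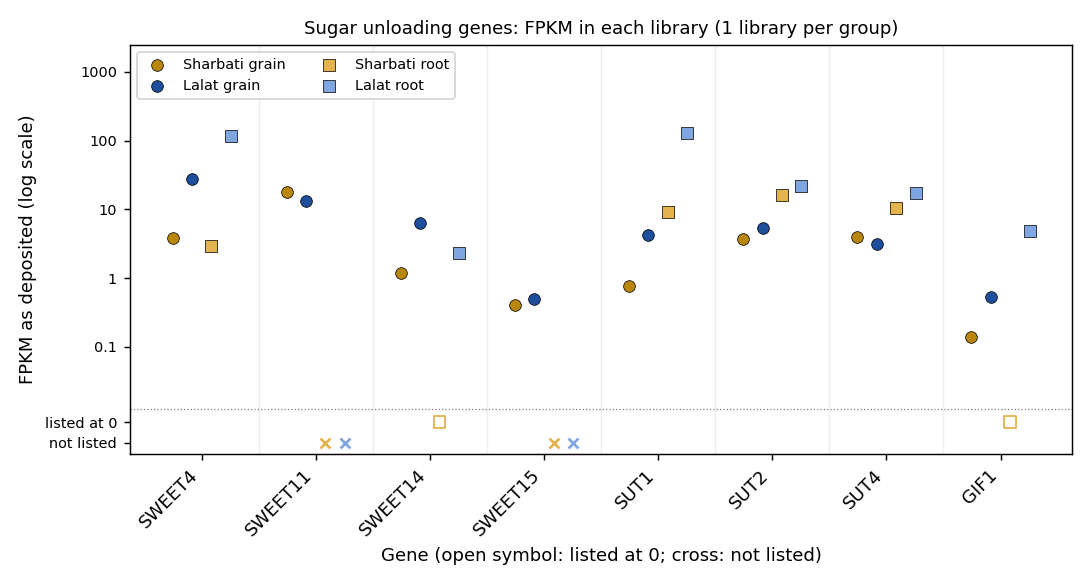
FPKM of the 8 genes (x axis) in each of the 4 libraries, on a log scale; each symbol is 1 library, an open symbol stands for a gene listed at 0 and a cross for a gene not listed. SWEET4 and SUT1 reach 118 and 128 FPKM in Lalat root, and SWEET11 and SWEET15 have values in grain alone.

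The first comparison asks how the SWEET genes differ between grain of the 2 cultivars. SWEET4 carried the widest difference: it stood at 3.86 FPKM in Sharbati grain and 27.7 FPKM in Lalat grain. This gene (LOC_Os02g19820, chromosome 2, positions 11592219 to 11596451, genome build not given in the sources used here) encodes a hexose carrier needed for seed filling in maize and rice. Its level was 7.17-fold higher in the Lalat library, a log2 ratio of Sharbati over Lalat of -2.56 on the log2(FPKM + 1) scale. Of the 13417 genes compared in grain, 0.730% had a lower ratio. SWEET4 was called different in the authors' deposited table (p = 4.2e-05), a p-value that compares the libraries and not the cultivars.

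SWEET11 (LOC_Os08g42350, chromosome 8, positions 26725897 to 26728795), a plasma membrane sucrose exporter that is also the bacterial blight susceptibility gene Xa13, went the other way by a small amount. It stood at 17.7 FPKM in Sharbati grain and 13.2 FPKM in Lalat grain, a log2 ratio of 0.40 and 1.35-fold. The authors' deposited table gives it p = 0.512 and no call. SWEET14 (LOC_Os11g31190, chromosome 11, positions 18171677 to 18174478), a further plasma membrane exporter, stood at 1.19 FPKM in Sharbati and 6.28 FPKM in Lalat grain. Its log2 ratio was -1.74, or 5.29-fold higher in Lalat. It was not called in the authors' deposited table (p = 0.0035). SWEET15 (LOC_Os02g30910, chromosome 2, positions 18454403 to 18457136), which acts beside SWEET11 in rice seed filling, was low in both, at 0.405 FPKM in Sharbati and 0.504 FPKM in Lalat grain. It missed the 1 FPKM needed for a comparison.

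The order of the SWEET genes therefore differed between the grain libraries. In Sharbati grain it ran SWEET11, SWEET4, SWEET14, SWEET15, and SWEET11 was 4.60-fold above SWEET4. In Lalat grain SWEET4 stood first, 2.10-fold above SWEET11. Of the summed FPKM of the 4 genes, SWEET11 made up 76.5% in Sharbati and 27.7% in Lalat grain, SWEET4 16.6% and 58.1%, and SWEET14 5.11% and 13.2%. The sum itself was 23.2 FPKM in Sharbati and 47.6 FPKM in Lalat grain. These shares are taken within a library, so scaling between libraries does not touch them. Whether neighbours in the order differ beyond the spread between plants cannot be said from 1 library each. In such whole-grain RNA, fewer cells of a type and less RNA per cell cannot be told apart.

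**Figure D2:**
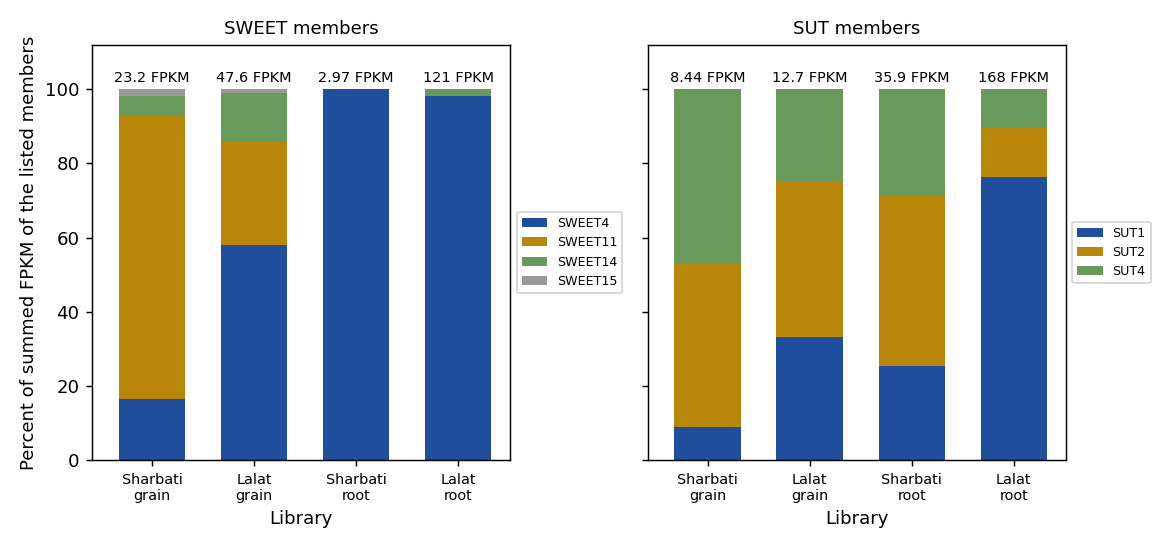
Share of each gene (percent, y axis) in the summed FPKM of the listed SWEET members (left) and SUT members (right) in each library, with the sum printed above each bar. SWEET11 holds 76.5% in Sharbati grain and SWEET4 58.1% in Lalat grain; SUT1 holds 76.3% in Lalat root and 8.99% in Sharbati grain.

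Among the sucrose transporters, SUT1 (LOC_Os03g07480, chromosome 3, positions 3797690 to 3804132), the proton-coupled carrier known from phloem and from the aleurone of filling rice grain, was low in grain and lower in Sharbati. It stood at 0.759 FPKM in Sharbati and 4.21 FPKM in Lalat grain, 5.54-fold higher in Lalat with a log2 ratio of -1.57. Of all genes compared, 5.23% had a lower ratio. It was called different in the authors' deposited table (p = 0.0011). SWEET4 and SUT1 were the 2 members of 8 called in grain in the authors' deposited table, against 3.89% of 28339 genes. SUT2 (LOC_Os12g44380, chromosome 12, positions 27513938 to 27518251), which releases sucrose from the vacuole, stood at 3.72 FPKM in Sharbati and 5.36 FPKM in Lalat grain, a log2 ratio of -0.43. SUT4 (LOC_Os02g58080, chromosome 2, positions 35548812 to 35553460), a further sucrose transporter that the deposited description names only as a major facilitator protein, stood at 3.96 FPKM and 3.13 FPKM, a log2 ratio of 0.26. Neither was called in the authors' deposited table (p = 0.377 for SUT2 and p = 0.641 for SUT4).

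SUT2 and SUT4 thus stood close together in Sharbati grain, with SUT4 1.06-fold above SUT2 and 5.22-fold above SUT1. In Lalat grain the order was SUT2, SUT1, SUT4. SUT1 made up 8.99% of the summed FPKM of the 3 transporters in Sharbati grain and 33.1% in Lalat grain, whereas SUT2 made up 44.1% and 42.2%. The name SUT2 is used for more than 1 locus: RefSeq lists SUT2 and SUT4 as synonyms of the gene called SUT4 here.

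GIF1 (LOC_Os04g33740, chromosome 4, positions 20422170 to 20427062), the cell-wall invertase CIN2 whose loss leaves rice grain incompletely filled, was near the bottom in grain. It stood at 0.138 FPKM in Sharbati and 0.536 FPKM in Lalat grain. A single fragment was worth 0.00968 to 0.201 FPKM in Sharbati grain (5th to 95th percentile over genes of all lengths). GIF1 lies in that range, which does not show that it rested on 1 fragment. The sucrose transporter SUT5, with the p-value read as 1 fragment, stood at 0.0168 FPKM there. How many fragments GIF1 had is not known. At percentile 29.7 of listed genes in Sharbati grain and 39.7 in Lalat grain, it ranked below every other member in the first and below all but SWEET15 in the second. SWEET11 ranked at percentile 89.1 in Sharbati grain and SWEET4 at percentile 91.9 in Lalat grain.

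Of the 6 members compared in grain, 3 were 2-fold or more apart, against 23.7% of all genes compared. All 3 (SWEET4, SWEET14 and SUT1) were lower in the Sharbati library and 0 were higher, against 17.4% lower and 6.31% higher among all genes. The members' median log2 ratio was -0.998 and that of all compared genes -0.35. The 3 members were also at least 2-fold lower after either rescaling between the libraries, but with a pseudocount of 5 FPKM only SWEET4 was. The grain libraries also differed in an aleurone gene: NF-YB1, a transcription factor of the aleurone stood at 0.177 FPKM in Sharbati and 5.80 FPKM in Lalat grain. The oil body protein OLE16 stood at 62.4 FPKM in Sharbati against 134 FPKM in Lalat grain, and OLE18 at 37.4 against 92.0 FPKM. The part of these differences in the SUT1 and SWEET values was not tested.

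**Figure D3:**
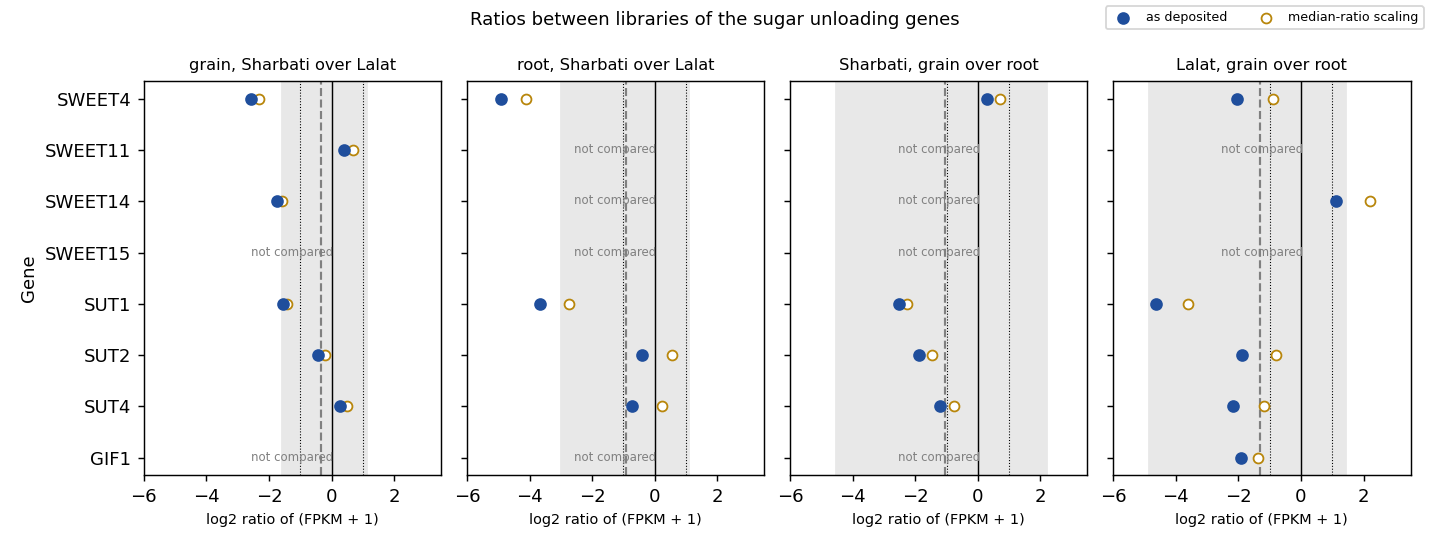
Log2 ratio of (FPKM + 1) between libraries (x axis) for each gene (y axis) in the 4 comparisons; filled points are values as deposited, open points values after median-ratio scaling, the grey band runs from the 5th to the 95th percentile of all genes compared, the dashed line is their median and dotted lines mark 2-fold. SWEET4 lies left of the band between cultivars in grain (-2.56) and in root (-4.91).

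In root, the same comparison of cultivars gave wider differences for the same pair of genes. SWEET4 stood at 2.97 FPKM in Sharbati root and 118 FPKM in Lalat root. It was 39.8-fold higher in Lalat, a log2 ratio of -4.91, and 0.535% of the 13653 genes compared had a lower ratio. SWEET4 was called in the authors' deposited table (p = 0.000402). SWEET4 was the 1 member called of 6 listed, against 1.14% of 25225 genes. The Sharbati value lies within the range of 1 fragment over the genes used to read it, 0.223 to 7.14 FPKM. That range spans all transcript lengths. SWEET12, of the same family, had the p-value read as 1 fragment and stood at 0.763 FPKM in Sharbati root, below SWEET4. How many fragments SWEET4 had is not known, so the size of this fold is poorly known. The Lalat value of SWEET4 stood at percentile 94.2 of its library. SUT1 stood at 9.08 FPKM in Sharbati root and 128 FPKM in Lalat root, 14.1-fold higher in Lalat with a log2 ratio of -3.68. After median-ratio scaling the log2 ratios were -4.10 for SWEET4 and -2.76 for SUT1. It was not called in the authors' deposited table (p = 0.00247).

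The other sucrose transporters were closer. SUT2 stood at 16.5 FPKM in Sharbati root and 22.3 FPKM in Lalat root, a log2 ratio of -0.41. SUT4 stood at 10.4 and 17.6 FPKM, a log2 ratio of -0.71. Both ratios were above the median of all genes compared (-0.92), and both changed sign after median-ratio scaling, to 0.54 for SUT2 and 0.22 for SUT4. SUT1 was thus the lowest of the 3 in Sharbati root, at 25.3% of their sum, and 5.77-fold above SUT2 in Lalat root, at 76.3% of the sum.

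The remaining SWEET genes and the invertase were thinly listed in root. SWEET14 stood at 2.32 FPKM and GIF1 at 4.78 FPKM in Lalat root, and both were listed at 0 in Sharbati root. In Sharbati root, 1 fragment stood for up to 7.14 FPKM at the 95th percentile over genes of all lengths. SWEET12, read as 1 fragment there, stood at 0.763 FPKM. Whether levels such as those in Lalat would be detected in Sharbati root was not tested. SWEET11 and SWEET15 were not listed in root of either cultivar, which was treated as missing and not as 0. Of the 4 members compared in root, 2 were 2-fold or more apart, against 52.2% of all genes compared. Both (SWEET4 and SUT1) were lower in Sharbati and 0 members were higher, against 46.7% lower and 5.51% higher among all genes. The members' count is thus near the background. When both libraries had to exceed the 95th percentile of 1 fragment, a filter chosen after seeing the data, 3 members were compared and SUT1 alone was lower.

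The organ comparison sets grain against root within a cultivar. The authors processed the grain pair and the root pair separately, so these ratios cross tables and are descriptions. In FPKM as deposited, SUT1, SUT2 and SUT4 were higher in root than in grain in both cultivars. For SUT1 root was 12.0-fold above grain in Sharbati and 30.5-fold in Lalat, for SUT2 4.42-fold and 4.15-fold, and for SUT4 2.61-fold and 5.62-fold. SWEET4 differed by cultivar: in Sharbati grain (3.86 FPKM) was slightly above root (2.97 FPKM), and in Lalat root was 4.28-fold above grain. SWEET14 was 2.71-fold higher in grain than in root of Lalat. GIF1 was 8.93-fold higher in root than in grain of Lalat.

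In Sharbati, 3 of 4 members compared were 2-fold or more apart, against 65% of 12648 genes. The 3 were lower in grain and 0 were higher, against 51% lower and 14% higher among all genes. In Lalat, 6 of 6 were 2-fold or more apart, against 66.8% of 17533 genes. Of these, 5 were lower in grain and 1, SWEET14, was higher, against 59.7% lower and 7.11% higher among all genes. With a pseudocount of 5 FPKM 4 were lower and 0 higher, as SWEET14 came to a log2 ratio of 0.62 and GIF1 to -0.82. With so large a background and so few members, nothing particular to them is read from these counts. After median-ratio scaling SWEET4 and SUT2 were no longer 2-fold apart in Lalat, with log2 ratios of -0.88 and -0.80, nor SUT4 in Sharbati, with -0.76. Ranks among the listed genes of a library need no scaling between libraries, but the lists differ in length (15584 genes in Sharbati root, 23740 to 25305 in the others) and in the level of 1 fragment, so they are given side by side only. SUT1 stood at percentile 52.3 and 68.8 in grain of Sharbati and Lalat, and at 60.2 and 94.7 in their roots. SUT2 stood between percentile 72.1 and 73.9 of each list. SUT4 stood at percentile 72.9 and 64.1 in grain of Sharbati and Lalat, and at 63.1 and 69.4 in their roots. Its rank in Sharbati was thus lower in root than in grain.

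**Figure D4:**
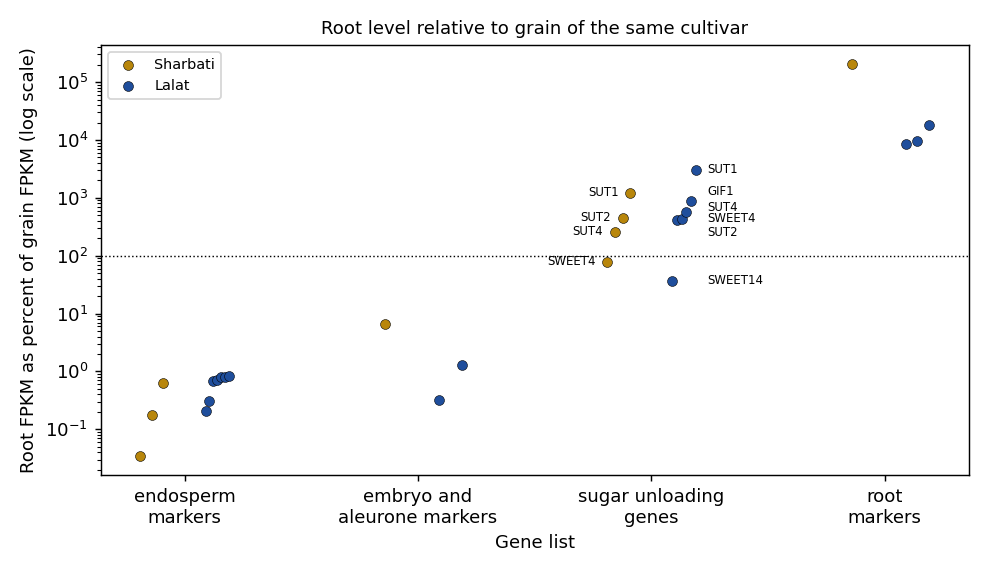
Root FPKM as percent of grain FPKM of the same cultivar (log scale, y axis) for endosperm, embryo and aleurone, and root markers and for the sugar unloading genes with values in both organs; each point is 1 gene, the dotted line marks equal levels. The 7 of 12 endosperm markers with a value in both Lalat libraries stay at 0.209% to 0.821% of their grain level in root, SWEET4 and SUT1 are at 428% and 3050%.

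Because storage transcripts were measured in Lalat root, the members' root levels were set beside those of the markers. The 7 endosperm markers above 0 in both Lalat libraries stood in root at 0.209% to 0.821% of their grain level, and the oleosins at 0.325% and 1.28%. The other 5, not listed in grain, stood at 217 FPKM (GluB4) to 422 FPKM (GluB1a) in Lalat root, above the members there, and their root share of grain is unknown. The 6 members with values in both Lalat libraries stood in root at 36.9% (SWEET14) to 3050% (SUT1) of their grain level. In Sharbati the 3 endosperm markers with both values stood at 0.0351% to 0.635%, OLE18 at 6.70%, and the 4 members at 77.1% (SWEET4) to 1196% (SUT1). SWEET11, at 13.2 FPKM in Lalat grain, was not listed in Lalat root.

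The rest of the pathway was taken from a list of 31 loci holding the other SWEET and SUT genes, further cell-wall invertases (CIN), the vacuolar invertases INV2 and INV3, and monosaccharide carriers (MST). Of these, 24 were listed in at least 1 library. In grain 7 could be compared: 1 was 2-fold or more below its Lalat level in Sharbati and 0 were above it, against 17.4% below and 6.31% above among all genes, with a median log2 ratio of -0.58 against -0.35 for all genes compared. The lower one was SWEET13, an exporter close to SWEET14, at 0.757 FPKM in Sharbati and 4.15 FPKM in Lalat grain. In root it stood at 31.4 FPKM in Lalat and was listed at 0 in Sharbati. SWEET2a, a family member of another clade, stood at 9.35 FPKM in grain of Sharbati and 14.4 FPKM in grain of Lalat, and at 4.61 and 26.3 FPKM in their roots. It was therefore above SWEET4 in Sharbati grain and below it in Lalat grain.

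In root 11 loci of the list could be compared, of which 2 were 2-fold or more above and 2 as far below their Lalat level in Sharbati, against 5.51% above and 46.7% below among all genes, with a median log2 ratio of -0.34 against -0.92 for all genes. The lower ones were SWEET2a and CIN5. Their Sharbati root values lay within the range of 1 fragment there over genes of all lengths, 0.223 to 7.14 FPKM. How many fragments they had is not known. The log2 ratio of CIN5, -1.07, was near the median of all genes. Loci at 0 in Sharbati root, such as SWEET13, SWEET3b, SWEET6a and INV2, are not in this count. A locus listed at 0 in 1 root library is above 0 in the other by how the tables list genes. Over all genes, 9641 were at 0 in Sharbati root and above 0 in Lalat root, and 1485 the other way round. Nothing particular to these loci is read from their zeros. The higher ones were cell-wall invertases: CIN1 stood at 97.8 FPKM in Sharbati and 38.5 FPKM in Lalat root, and CIN4 at 40.2 and 15.7 FPKM. CIN5 stood at 3.46 FPKM in Sharbati root against 8.34 FPKM in Lalat root, and CIN6 stood at 23.0 against 45.6 FPKM. CIN7 stood at 5.60 and 9.10 FPKM. In grain CIN1 and CIN7 had values of 0.809 to 1.79 FPKM, and the other listed CIN loci were below 0.4 FPKM or at 0. The 7 cell-wall invertases listed in at least 1 library, GIF1 among them, summed to 2.25 FPKM in Sharbati grain and 4.09 FPKM in Lalat grain. In root they summed to 170 FPKM in Sharbati and 122 FPKM in Lalat. CIN5 was not listed in grain nor CIN3 in root, and each added nothing to the sums there, so these cover different loci. GIF1 held 6.14% of the sum in Sharbati grain, 13.1% in Lalat grain and 3.92% in Lalat root.

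Of the other SWEET genes, SWEET16 stood at 5.13 FPKM in Sharbati and 5.96 FPKM in Lalat root and below 0.5 FPKM in grain. SWEET3b and SWEET6a reached 6.55 and 5.42 FPKM in Lalat root and were listed at 0 in Sharbati root. The monosaccharide carriers take up hexoses such as those that invertase releases, and MST3 and MST6 had higher root levels than any other locus of the list or any member. MST3 stood at 987 FPKM in Sharbati and 1083 FPKM in Lalat root, and MST6 at 955 and 1583 FPKM. In grain neither exceeded 1.54 FPKM. MST4 stood at 4.80 FPKM in Sharbati and 6.20 FPKM in Lalat grain, with root levels of 52.1 and 57.4 FPKM. The authors' deposited table called 0 of the 24 listed loci in either organ, against 3.89% of 28339 genes in grain and 1.14% of 25225 in root. With shares so small, nothing particular to these loci is read from that count.

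**Figure D5:**
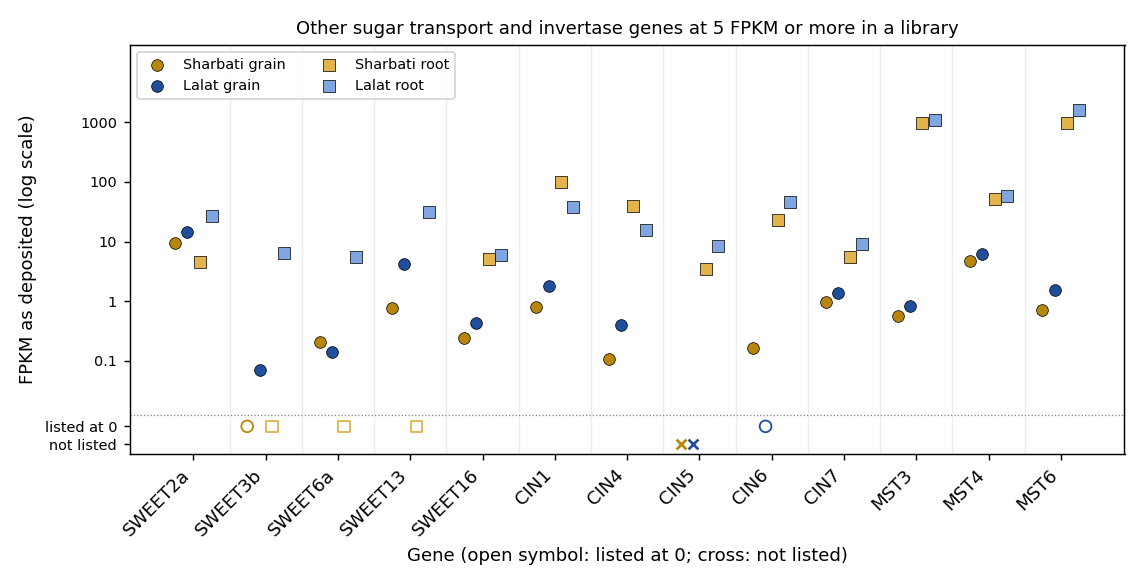
FPKM (log scale) of the other pathway genes at 5 FPKM or more in at least 1 library; symbols as for the 8 genes, 1 per library. The CIN and MST genes sit higher in root, with MST3 and MST6 between 955 and 1583 FPKM there, and SWEET13 has its highest value, 31.4 FPKM, in Lalat root.

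For members that reached 20 FPKM in a library, the genes with the most similar levels were looked up as the smallest Euclidean distance in log2(FPKM + 1) over the 4 libraries, among 22110 genes. SWEET4 was nearest to LOC_Os10g22590, described as a pollen Ole e I allergen and extensin family protein, at a distance of 0.48. That gene stood at 3.18 and 30.2 FPKM in grain of Sharbati and Lalat, and at 4.04 and 101 FPKM in their roots. The next, LOC_Os02g40690 (an expressed protein) and LOC_Os05g15770 (a glycosyl hydrolase), were farther away, at 1.45 and 1.50. SUT1 was nearest to LOC_Os10g28350, a dihydroxy-keto-methylthiopentene dioxygenase (distance 0.52), LOC_Os04g49420, a core histone domain protein (0.58), and LOC_Os05g31140, a glycosyl hydrolase of family 17 (0.63). SUT2 had closer neighbours in LOC_Os09g27030, an oryzain gamma chain precursor (0.14), LOC_Os01g24680, a hydroxyacyl-CoA dehydrogenase (0.18), and LOC_Os07g32412, described as a transposon protein (0.23). With 4 libraries such distances are descriptions.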

How the data were processed

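RNA of 4 libraries was sequenced from poly(A) selected TruSeq paired-end libraries, per the labels' protocols. Per the submitters' processing notes, the tools were TopHat 1.3.3, Bowtie 0.12.9, Cuffdiff and Cufflinks 1.3.0, with the genome build not given in the sources used here. FPKM values are as deposited by the authors, who compared the grain pair and the root pair separately. The deposited p-value of each organ's pair compares 2 libraries and is quoted as the authors' own. Their calls were made at a false discovery rate of 0.05, per the series' design text, which also names a filter on low counts over 6 libraries, of which 4 were analysed here. How that filter bears on which genes are listed or called is not known.

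Each library's table lists genes above 0 there, so a gene is at 0 where only its partner's table lists it, and not listed where neither does. Transcripts were collapsed to loci by dropping the final number, with each distinct value taken once and 2 distinct values summed (2 loci in each organ). Ratios are log2((a + 1)/(b + 1)) of FPKM, with a pseudocount of 1, for loci listed above 0 in both libraries and at 1 FPKM or more in at least 1. They were counted as apart at 2-fold. Folds are plain FPKM ratios. Adding a pseudocount understates ratios of low genes. With 1 library per group there was no test. The value of 1 fragment was read from genes with a partner at 0 and the most frequent deposited p-value, 0.159, which is an inference; the depth is unknown.

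The members, the pathway and marker lists and the tests were chosen with earlier results of these data known. All 8 member names were found in RefSeq (ASM3414082v1) as synonyms of a gene on the same chromosome; its coordinates were not used. Named were the members, pathway genes at 5 FPKM or more in a library, and the 3 genes nearest in pattern to each member at 20 FPKM or more. Median-ratio scaling was checked on simulated differences. Equal totals without the 100 highest genes were not checked in this way. How either scaling performs where most genes differ in the same direction was not tested. Alternatives were other pseudocounts, scalings, filters, treatment of unlisted genes and a 4-fold threshold. Assembled transcripts outside the annotation were not analysed here. Python 3.11.15, pandas 2.3.3, numpy 2.4.6 and matplotlib 3.10.9 were used.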

Additional observations from a re-analysis of the deposited data

Results flagged for a closer look

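SWEET4 had opposite signs in the organ comparison of the cultivars. Its log2 ratio of grain over root was 0.29 in Sharbati and -2.06 in Lalat. The Sharbati root value, 2.97 FPKM, is within the range of 1 fragment over genes of all lengths in that library, 0.223 to 7.14 FPKM. SWEET12, read as 1 fragment there, stood at 0.763 FPKM. The difference between cultivars was not tested.

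SUT4 had opposite signs in the cultivar comparison of the organs, with a log2 ratio of Sharbati over Lalat of 0.26 in grain and -0.71 in root. After median-ratio scaling the values were 0.50 and 0.22, of the same sign, and the difference between organs was not tested.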

How the results depend on the processing

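Each of the 4 counts of members at least 2-fold apart (grain 3, root 2, Sharbati grain against root 3, Lalat grain against root 6) was recomputed under 9 alternatives and 1 added after seeing the data. With a pseudocount of 5 FPKM the counts were 1 in grain, 2 for Sharbati organs and 4 for Lalat organs, all lower. Among all genes 4.75%, 30.6% and 39.7% were lower. At 4-fold the counts were 1 in grain, 1 for Sharbati organs and 3 for Lalat organs, all lower, against 2.19%, 27.1% and 31.8%. With unlisted genes set to 0, genes listed at 0 in 1 library were admitted too. The count in root was then 4 (all lower, against 60.1%). The members added there, SWEET14 and GIF1, were listed at 0 in Sharbati root and were not unlisted. For Sharbati organs it was 5 (3 lower, 2 higher), against 46.4% lower and 4209 of 16100 genes higher. For Lalat organs it was 7 (5 lower, 2 higher), against 61.3% lower and 1843 of 19805 genes higher. Either rescaling gave 2 for Sharbati organs (all lower) and 4 for Lalat organs (3 lower, 1 higher). With median-ratio scaling 43.3% and 37.6% of all genes were lower, and 2532 of 12648 and 3084 of 17533 were higher. With equal totals without the 100 highest genes 40.7% and 34.9% were lower, and 2782 of 12648 and 3577 of 17533 higher. The filter of 5 FPKM gave 2 of 4 in grain, all lower, against 18.4% of genes. For Lalat organs it gave 5 of 5, with 4 lower, against 64.9%, and 1 higher, against 989 of 12948 genes. The added filter, above the 95th percentile of 1 fragment in both libraries, gave 1 of 3 in root (lower, against 36.9%). The cause of these changes is the construction of each alternative. SUT2 and SUT4 in root reversed, to 0.54 and 0.22 with median-ratio scaling and to 0.50 and 0.18 with equal totals without the 100 highest genes. Of 194 single log2 ratios under alternatives, 172 kept their direction and side of the threshold, 18 fell below it and 4 reversed. Many of the 172 could not have moved. Other filters, unlisted genes set to 0 and the highest value of a locus left each member's ratio as it was. The share kept is therefore no measure of stability. The offset removed by median-ratio scaling was -0.29 in grain and -0.999 in root on the log2 scale. Over all genes it moved the share higher among those apart from 26.6% to 45.2% in grain, from 10.5% to 44.9% in root, from 21.5% to 31.6% for Sharbati organs and from 10.7% to 31.9% for Lalat organs. With a pseudocount of 5 FPKM, 637 genes were lower in grain, against 2334. For every SWEET and SUT member the highest value of a locus equalled the summed one, so that alternative could not change the shares within a family. No paired analysis was possible because each group holds 1 library, and leaving one out leaves no comparison. The depth is unknown. In Sharbati root 1 fragment was inferred to be worth 1.07 FPKM at the median and 7.14 FPKM at the 95th percentile. Values below 7.14 FPKM there may therefore rest on few fragments, most of all in short transcripts.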

Other observations

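Some loci of the pathway list stayed under 5 FPKM in every library. SWEET7d was at 0 in Sharbati grain, with 1.83 FPKM in that of Lalat. SWEET12 stood at 0.763 FPKM in Sharbati root, within the range of 1 fragment there, and was listed at 0 in Lalat root. The sucrose transporter SUT5 stood at 0.0168 FPKM and the invertase CIN3 at 0.0446 FPKM in Sharbati grain, and both were listed at 0 in Lalat grain. The vacuolar invertase INV2 stood at 4.61 FPKM in Lalat root and at 0 in Sharbati root, and INV3 did not exceed 0.261 FPKM in any library.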
